A study of Mus musculus with 2 samples.

Results

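Cytosolic ribosomal proteins build the small and large subunits of the ribosome around ribosomal RNA. Their mRNAs are among the most abundant of a growing cell, are long-lived, and begin with a run of pyrimidines (the terminal oligopyrimidine or TOP motif) through which growth signals acting on mTOR and LARP1 set their translation. In mouse fibroblasts, as in other cells, each protein is needed in a fixed proportion to the others, and unassembled members such as RPL5 and RPL11 can bind MDM2 and stabilise p53.

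The genes were taken by name: every probe set of the array whose only annotated symbol was Rpl or Rps followed by a digit, Rplp0, Rplp1, Rplp2 or Rpsa, without the S6 kinases that carry an Rps6k symbol. This gave 107 probe sets of 51 symbols, out of 45101 probe sets on the array and 34945 with 1 symbol. Of the symbols, 43 were ribosomal proteins proper, 22 of the large and 21 of the small subunit. A further 6 were paralogs (Rpl22l1, Rpl39l, Rpl3l, Rpl7l1, Rps27l and Rps4l), and 2 only share the name, the pseudogene Rps15a-ps6 and Rps19bp1, which encodes a nucleolar binding partner of RPS19. Rplp1, Rpl3, Rpl5, Rpl10, Rpl23 and Rps27a had no probe set with a symbol of their own and are not described.

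RNA came from NIH3T3, a line of immortalised fibroblasts from mouse embryos, grown in serum-containing medium. Both cultures had been infected with a retrovirus expressing a short hairpin RNA, directed against CCR4b (Cnot6l, a deadenylase subunit of the CCR4-NOT complex) in one and a control RNAi in the other. Each group holds 1 array, so there is no replicate error and no test. "Higher" and "lower" compare the CCR4b RNAi array with the control RNAi array, and dishes, infection and knockdown cannot be told apart. On the control array Cnot6l read 102 units, against 43.0 on the CCR4b RNAi array, on its brightest probe set, and it was lower on each of its 4 probe sets. All 6 fibroblast markers were measured, at 221 to 4022 units in the control and 130 to 3993 units after CCR4b RNAi. Of 10 epithelial, blood and muscle markers, 3 reached the detection floor, Epcam, Cd68 and Adgre1, none above 29.5 units.

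The annotated gene starts were searched for the run of pyrimidines that marks a TOP mRNA. For 38 of the 43 ribosomal protein genes a promoter was found in RefSeq (build GRCm38.p6), 44 start sites in all, since some genes have several. The motif searched was a C at the annotated start followed by 4 bases that are each C or T, on the gene's strand. It was present at 8 of 44 start sites (18.2%) and at 2.51% of all 32851 promoters of the table. Annotated starts can lie some bases away from the one used. Allowing the motif anywhere from 5 bases before the start to 10 after it gave 19 of 44 (43.2%), against 18.3% of all promoters, so most annotated starts did not hold it. The letters CCGGAAG, the core of an ETS factor motif, were found on either strand within 300 bases at 43.2% of these promoters and 8.86% of all. The letters TATAAA, 40 to 15 bases before the start, were in 0 of 44 and 1.99% of all. A match is a description of the letters and not a site. The 8 matching windows are shown because they carry the run described for this class of mRNA; each holds the 15 bases before the annotated start and the first 15 from it on, 5′ to 3′ on the gene's strand, with the C and the pyrimidines that follow it in capitals.
Rpl14, chr9:120571502-120571531, plus strand: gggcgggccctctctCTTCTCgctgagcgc
Rpl35, chr2:39005117-39005146, minus strand: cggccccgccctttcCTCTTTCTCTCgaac
Rpl38, chr11:114668565-114668594, plus strand: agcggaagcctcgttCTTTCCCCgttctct
Rplp2, chr7:141447636-141447665, plus strand: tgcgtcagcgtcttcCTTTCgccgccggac
Rps6, chr4:86857353-86857382, minus strand: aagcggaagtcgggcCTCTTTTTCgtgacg
Rps10, chr17:27635230-27635259, minus strand: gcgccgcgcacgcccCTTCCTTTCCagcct
Rps18, chr17:33955651-33955680, minus strand: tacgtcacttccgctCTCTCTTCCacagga
Rps27, chr3:90213634-90213663, minus strand: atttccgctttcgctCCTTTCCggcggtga

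Most ribosomal protein probe sets were among the brightest of the array, and the rest were spread down to the noise. Signals were raised to a floor of 8.07 units, the median of all values of both arrays. The 94 member probe sets that reached it on at least 1 array were sorted by mean log2 signal into 10 equal classes formed from all measured single-symbol probe sets. The brightest class, with a geometric mean signal of at least 254 units, held 74 of them from 40 genes, classes 6 to 9 held 13, and the dim classes 1 to 5 (up to 32.9 units) held 7. The other 13 stayed below the floor on both arrays. Of the 100 strongest signals of the control array, 34 were members, and 42 more were probe sets with several symbols that include a ribosomal protein. Signal differs between probe sets for reasons of the probes themselves, so it does not rank the genes by abundance. The kinds of probe set differed between the ranges. Of the 74 bright ones, 35 had identifiers ending in _x_at, 27 in _a_at and 3 in _s_at, meaning that probes match more than 1 transcript or transcript form, and 9 ended in plain _at. All 7 dim ones ended in plain _at. A RefSeq mRNA was the listed target of 26 of the 74 bright and of 0 of the 7 dim probe sets.

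**Figure D1:**
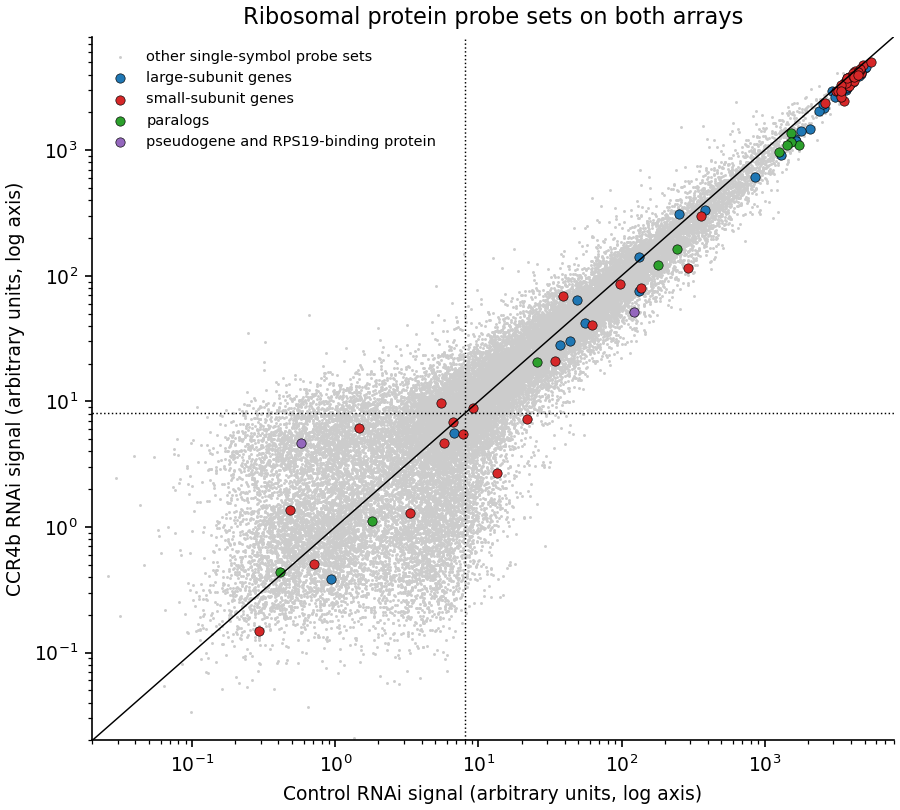
Signal of each probe set on the control RNAi array (horizontal, arbitrary units, log axis) and the CCR4b RNAi array (vertical, arbitrary units, log axis). Coloured points are the 107 probe sets with ribosomal protein symbols and grey points the other single-symbol probe sets; dotted lines mark the floor of 8.07 units and the diagonal marks equal signal. Most coloured points crowd at the upper end just under the diagonal.

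Most ribosomal protein genes had a slightly lower signal after CCR4b RNAi, and few passed a threshold. Of the 43 genes, 42 were measured, all above the floor on both arrays, with log2 ratios from -1.34 to 0.82, and 40 of them were below 0, where 55.9% of the 11990 measured genes did. Their median log2 ratio was -0.18 (1.13-fold lower), beside -0.069 for all measured genes, and their robust SD (scaled median absolute deviation) was 0.12, beside 0.50. At least 20% lower, or 25% higher (the same fold in either direction), were 5 and 2 of the 42, where 30.1% of measured genes were lower and 22.2% higher by as much. The 35 genes between these limits were 83.3% of the 42, beside 47.7% of all measured genes. Past 1.5-fold lay 2 that were lower and 1 that was higher, against backgrounds of 14.7% and 11.5%.

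The brightest class spans a wide range of signal, and most members lie at its upper end. In that class as a whole the 37 ribosomal protein genes had a median log2 ratio of -0.18 and the 1457 other genes of the class -0.17. All 37 had a ratio below 0, where 69.2% of the 1497 genes of the class did. Of the 37, 2 were at least 20% lower and 0 at least 25% higher, where 34.9% and 11.6% of the class were. Past 1.5-fold there were 0 in either direction, where the class had 12.9% lower and 5.21% higher. The median depended on the scaling. When each array was scaled to its own median it was -0.27, and 14 of 42 genes were at least 20% lower, where 36.8% of all measured genes were. With quantile normalization the median was -0.053 and with a loess correction on signal it was -0.057, and 28 of 42 genes were then below 0 in each case. Of all measured genes, 51.7% were below 0 with quantile normalization and 50.5% with loess.

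**Figure D2:**
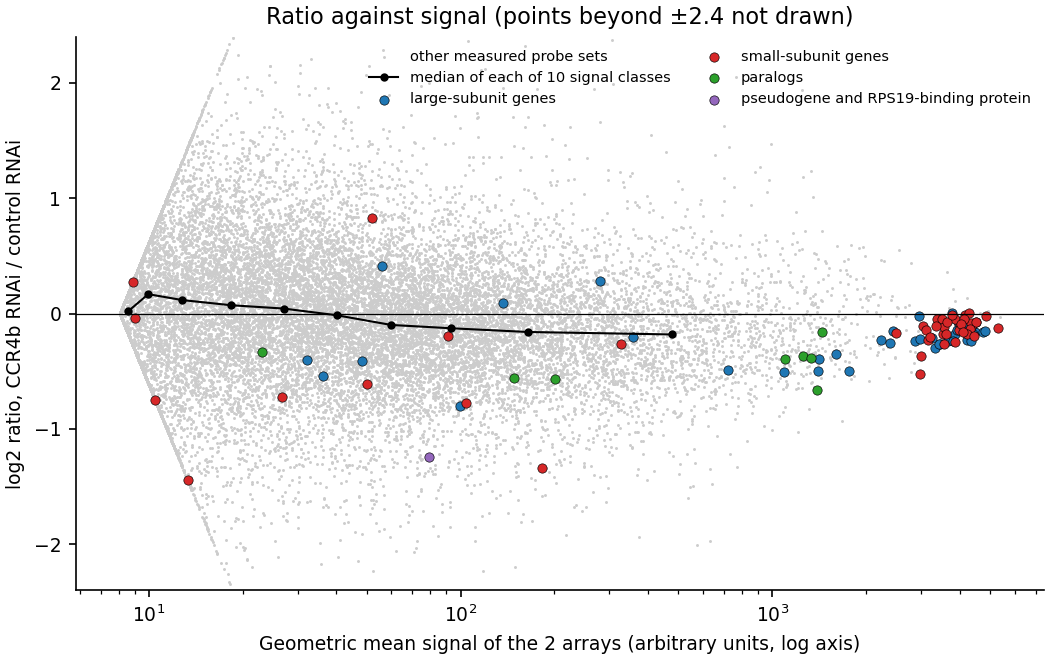
Log2 ratio of CCR4b RNAi over control RNAi (vertical) against the geometric mean signal of the 2 arrays (horizontal, arbitrary units, log axis), 1 point per measured probe set. The black line joins the medians of 10 equal signal classes, which fall from 0.17 in class 2 to -0.18 in class 10; ribosomal protein probe sets above 3000 units form a narrow band below 0.

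How far a bright member lay below 0 differed with its signal. The 52 member probe sets with a mean of 3000 units or more had a median log2 ratio of -0.14 and a robust SD of 0.092. The 21 other probe sets of that signal had a median of -0.026, with a robust SD of 0.081. The 18 member probe sets between 1000 and 3000 units had a median of -0.36 and a robust SD of 0.20, and all 18 were below 0. They come from fewer genes, since Rpl13a and Rps27l, among others, have several of them. Some, such as those of Rpl35 and Rpl27, belong to genes that also have a probe set above 3000 units. The 325 other probe sets of that range had a median of -0.14 and a robust SD of 0.33, and 211 were below 0. These limits were chosen after the values were seen. Without the 5 probe sets of paralogs in that range, the 13 of ribosomal proteins proper had a median of -0.26. The 3 members between 300 and 1000 units had a median of -0.26 and a robust SD of 0.087, beside -0.20 and 0.40 for 1388 others. The deposited table has no saturation flag, and the part of the upper signal range in the small ratios was not tested.

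Large-subunit genes were lower than small-subunit genes in their medians. The 22 large-subunit genes had a median log2 ratio of -0.21 and the 20 measured small-subunit genes -0.11. In the brightest class the medians were -0.20 over 19 and -0.11 over 18 genes. Above 3000 units they were -0.18 over 20 and -0.11 over 32 probe sets, but between 1000 and 3000 units they were -0.26 over 11 and -0.35 over 2. Without _x_at and _s_at probe sets, open to cross-hybridisation, the gene medians were -0.21 and -0.18. The ranges overlapped: bright large-subunit genes lay between -0.49 and -0.078 and bright small-subunit genes between -0.37 and -0.023. With 1 array per group the difference between the subunits has no test.

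**Figure D3:**
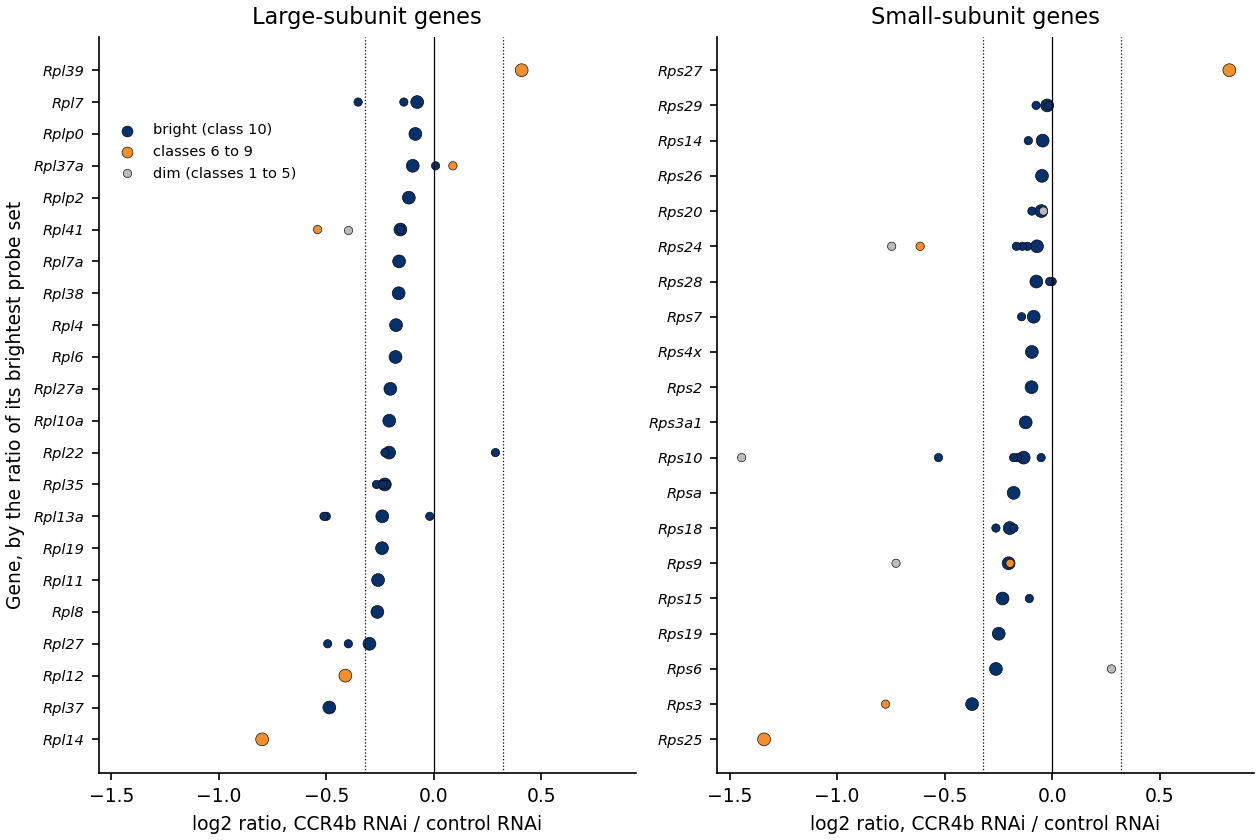
Log2 ratio of CCR4b RNAi over control RNAi (horizontal) for each measured probe set of the 22 large-subunit genes (left) and 20 small-subunit genes (right), ordered by the brightest probe set (large point; smaller points are further probe sets). Colour gives the signal class and dotted lines mark 20% lower and 25% higher; points beyond the lines are mostly from outside the brightest class.

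The ribosomal stalk, which recruits the GTPases of translation, differed little. Rplp0, the stalk base, read 4294 units with control RNAi and 4045 with CCR4b RNAi, a log2 ratio of -0.086. Rplp2, one of the acidic proteins of the stalk, read 4223 and 3895 units (-0.12). Both lay nearer to 0 than the large-subunit median.

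Rpl4, which reaches into the exit tunnel of the large subunit, read 4666 and 4130 units (log2 ratio -0.18). Rpl35, at the tunnel exit, read 4571 and 3902 units (-0.23), and its 5 measured probe sets agreed within 0.046 log2 units. Rpl19 read 3970 and 3358 units (-0.24). Rpl39, a small tunnel protein, was set apart by its only probe set, which is of class 7. It read 48.6 and 64.5 units, a log2 ratio of 0.41.

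Among the other large-subunit genes, 9 had a bright probe set with a log2 ratio between -0.21 and -0.078. Rpl7, which read 4037 and 3826 units, was the nearest to 0 (-0.078), followed by Rpl37a at 4528 and 4229 units (-0.098). Rpl41, the smallest ribosomal protein, read 5098 and 4577 units (-0.16). Rpl38, known for its part in the translation of Hox mRNAs, read 5013 and 4475 units (-0.16). Rpl7a (-0.16), Rpl6 (-0.18), Rpl27a (-0.20), Rpl10a (-0.21) and Rpl22 (-0.21) completed them. None of these was 20% lower on the brightest probe set.

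The lowest ratios of the large subunit came from genes with weaker signals. Rpl14 read 132 and 75.8 units on its only probe set, 1.74-fold lower (log2 ratio -0.80). Rpl37 read 855 and 611 units, 1.40-fold lower (-0.49), the lowest ratio of the bright large-subunit genes. Rpl12 read 55.7 and 41.9 units, 1.33-fold lower (-0.41). The robust SDs of log2 ratios in their signal classes were 0.45, 0.37 and 0.53. Rpl27 read 3685 and 2994 units (-0.30), Rpl8 3788 and 3157 units (-0.26), and Rpl13a, which also silences inflammatory mRNAs outside the ribosome, 4734 and 4009 units (-0.24). Rpl11, one of the proteins that bind MDM2, read 2612 and 2182 units (-0.26).

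The small-subunit genes nearest to equal signal were Rps29, Rps14, Rps26, Rps20, Rps24 and Rps28. Rps29, a zinc-binding protein of the subunit's head, read 4874 and 4797 units on its brightest probe set (log2 ratio -0.023) and had ratios of -0.074 and -0.016 on the others. Rps14, whose reduced dosage impairs red cell formation, read 3922 and 3805 units (-0.044). Rps26, beside the channel where mRNA leaves the ribosome, read 3421 and 3312 units (-0.047), and Rps28, its neighbour there, 4611 and 4382 units (-0.073). Rps20, of the head, read 4209 and 4066 units (-0.050). All 6 genes were at most 1.05-fold lower on their brightest probe sets.

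Of the remaining small-subunit genes, 11 lay between -0.26 and -0.085. Rpsa, also known as a laminin receptor, read 4493 and 3969 units (-0.18), and Rps2, at the mRNA entry, 4505 and 4216 units (-0.096). Rps3a1, the member with the strongest signal, read 5520 and 5069 units (-0.12). Rps4x read 4141 and 3879 units (-0.094) and Rps7, which like RPL11 binds MDM2, 4464 and 4208 units (-0.085). Rps10 (-0.13), Rps18 (-0.20), Rps9 (-0.20) and Rps15 (-0.23) lay in the same range. Rps19, the gene most often mutated in Diamond-Blackfan anaemia, read 4212 and 3546 units (-0.25). Rps6, the substrate of the S6 kinases, read 358 and 299 units on the brighter of its single-symbol probe sets (-0.26).

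Only Rps3, Rps25 and Rps27 of the 20 measured small-subunit genes were at least 20% lower or 25% higher. Rps3, a protein of the mRNA entry that also acts in DNA repair, was 1.29-fold lower at 3414 and 2638 units (log2 ratio -0.37). Its second probe set, in class 8, read 137 and 79.8 units (-0.77). Rps25, needed for initiation on some viral internal ribosome entry sites, read 291 and 115 units, 2.53-fold lower (-1.34). This was the lowest ratio among the 42 genes and the only one past 2-fold. Beyond that limit the 11990 measured genes of the array held 541 lower and 453 higher ones. The ratio of Rps25 rests on 1 probe set, in a class with a robust SD of 0.43. Rps27, a zinc-finger protein, went the other way with 39.1 and 69.2 units, 1.77-fold higher (0.82), also on 1 probe set, in a class with a robust SD of 0.48. Rps16 read 0.290 and 0.148 units, below the floor on both arrays.

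The genes at the ends of the range, Rps25, Rpl14, Rps27 and Rpl39, lacked a bright probe set of their own, as did Rpl12 and Rps16. The symbol of each of these 6 genes also stood among those of a probe set with several symbols that was as bright as the brightest class, and which of its listed genes gave that signal cannot be told apart, so these weak probe sets may not give the level of the gene. The 84 several-symbol probe sets of that brightness with a ribosomal protein symbol ran from -0.70 to 0.35. None reached the ratio of Rps25, Rpl14, Rps27 or Rpl39. As a group the bright and the weaker member probe sets differed. The 74 bright ones had a median log2 ratio of -0.17 and a robust SD of 0.11, beside -0.18 and 0.39 for the 2078 other bright probe sets. The 13 of classes 6 to 9 had a median of -0.56, from -1.34 to 0.82, beside -0.10 for 8599 others. They include probe sets of the paralog Rpl7l1 and of Rps19bp1. The 5 ribosomal protein genes whose brightest probe set lay in these classes had a median of -0.41. The 7 dim ones, among them a probe set of Rpl7l1 (-0.33), had a median of -0.40, beside 0.056 for 10757 others. Of the 7, 6 were below 0, where 45.9% of those others were. Only 4 of these 7 were above the floor on both arrays. When _x_at and _s_at probe sets, none of them dim members, were left out and the classes formed anew, 6 dim members remained with a median of -0.53. With the floor at the 25th percentile it was -0.28 and at the 75th percentile -0.29.

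The same contrast could be followed within a gene. Of the 21 member genes with at least 2 measured probe sets, 9 had a dimmest probe set outside the brightest class. In 5 of these 9, the dimmest probe set had a lower ratio than the brightest. Leaving out Rpl7l1, whose brightest probe set was not in that class, it was 5 of 8 (62.5%), beside 40.3% of 774 other genes with a bright and a weaker probe set. The median difference was -0.32 log2 units in those 8 genes and 0.11 in the others. With 8 genes no more can be said than that both directions occurred.

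Rps10 had the widest range. Its 5 bright probe sets had log2 ratios of -0.13, -0.16, -0.18, -0.051 and -0.53, and its dim one read 22.0 units in the control and was under the floor with CCR4b RNAi, which bounds the difference at 2.72-fold or more lower. Rps24 behaved alike: its 4 bright probe sets, at 2645 to 3731 units in the control, had log2 ratios from -0.17 to -0.070. Its probe set of 61.9 and 40.5 units was 1.53-fold lower, and the dimmest, at 13.5 units in the control, was at least 1.68-fold lower against the floor. Rps9 read 3432 and 2983 units (-0.20) and 97.7 and 85.3 units (-0.20) on the first pair of probe sets, and 34.4 and 20.8 units (-0.73) on the dim one. Rpl41 had -0.16 and -0.15 on its bright probe sets and -0.54 and -0.40 on those below 50 units. In these 4 genes the weak probe sets were as low as or lower than the bright ones.

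In other genes the weaker probe set was higher or the bright ones disagreed. Rpl22, a protein that also binds regulatory RNAs, had log2 ratios of -0.21 and -0.23 at 3490 and 2420 control units but 0.29 on its weakest probe set, at 254 and 309 units. Rpl37a had -0.098, 0.0078 and 0.088, the last at 133 and 141 units. The dim probe set of Rps6 was under the floor in the control and at 9.77 units with CCR4b RNAi, so at least 1.21-fold higher. Rpl13a had 4 bright probe sets that split into a pair at -0.24 and -0.019, with 4734 and 2974 control units, and a pair at -0.50 and -0.51, with 2090 and 1303 control units. Rpl27 had -0.30 at 3685 control units and -0.40 and -0.49 at 1625 and 1659. Over 4547 genes of the array, of any signal, the spread per probe set between a gene's 2 brightest ones was 0.30 log2 units (robust SD). It is larger than the median difference of the ribosomal protein genes, but it describes single probe sets and the other is a median over 42 genes. The 74 bright member probe sets had a robust SD of 0.11.

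**Figure D4:**
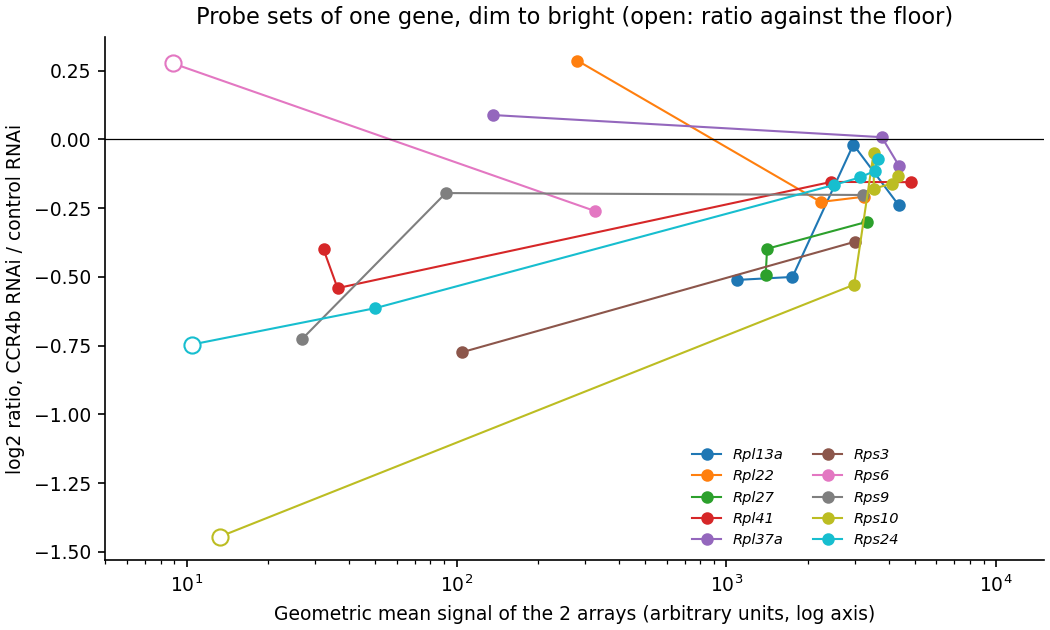
Log2 ratio of CCR4b RNAi over control RNAi (vertical) against the geometric mean signal of the 2 arrays (horizontal, arbitrary units, log axis) for the measured probe sets of 10 genes, joined by gene. Open points have 1 array below the floor, so their ratio is a bound; Rps10, Rps24, Rps9 and Rpl41 go down toward weak signals and Rpl22, Rpl37a and Rps6 go up.

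Of the 6 paralogs, 4 were measured, all with ratios below 0, where 55.9% of all measured genes were. Rpl22l1, the paralog that can take the place of RPL22, read 1753 and 1106 units, 1.59-fold lower (log2 ratio -0.66), beside -0.21 for Rpl22. It was the only one of the 74 bright member probe sets past 1.5-fold, and the brightest class had a robust SD of 0.37. Beyond the same limit the 2152 probe sets of that class, members included, held 293 lower and 106 higher ones. Rps27l, a p53-inducible paralog of Rps27, read 1520 and 1162 units, 1424 and 1104 units, and 1261 and 960 units on its 3 probe sets. These gave log2 ratios of -0.39, -0.37 and -0.39, all of 1 direction, where the only single-symbol probe set of Rps27, a weak one of class 7, had 0.82. Rpl7l1, which acts in ribosome assembly, had -0.57, -0.56 and -0.33 at 244, 180 and 25.8 control units, beside -0.078 for Rpl7. Rpl39l read 1527 and 1370 units, a log2 ratio of -0.16, beside 0.41 on the weak class 7 probe set of Rpl39; the median of its own class was -0.18. Rpl3l, a striated muscle paralog, and Rps4l stayed below the floor on both arrays, as did the pseudogene Rps15a-ps6. Rps19bp1 read 121 and 51.3 units, 2.36-fold lower (-1.24).

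Further parts of the ribosome's production line were set beside the ribosomal proteins, each gene by its brightest probe set. Fau, whose product is cleaved to a small-subunit protein, read 3563 and 3050 units (log2 ratio -0.22). A list of non-ribosomal mRNAs known as TOP mRNAs held many for translation factors, but also Vim, Cct4, Nap1l1, Hnrnpa1, Npm1, Naca, Btf3, Ybx1 and Tpt1. The 18 genes measured had a median of -0.17. The pyrimidine run was at 2 of the 13 annotated starts found for them (15.4%). Of the 18 genes, 6 (33.3%) were at least 20% lower, near the 30.1% of all measured genes, and 0 at least 25% higher. Eef1a1, the elongation factor that brings aminoacyl-tRNA, read 4910 and 4972 units (0.018), and Tpt1 4623 and 4629 units (0.0017). Hnrnpa1, a splicing protein, was the only one past 1.5-fold, at 401 and 238 units, 1.69-fold lower, but the median over its probe sets was -0.38 on the log2 scale, and the ratio was -0.25 without probe sets open to cross-hybridisation.

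Factors that assemble ribosomes had a lower median ratio than the proteins they assemble, and weaker signals in most cases. All 27 were measured, with a median log2 ratio of -0.58; 22 were at least 20% lower and 0 at least 25% higher, and 13 were at least 1.5-fold lower. Of all measured genes, 30.1%, 22.2% and 14.7% were. Nob1, the nuclease that finishes the small-subunit RNA, read 118 and 44.7 units, 2.65-fold lower. Dkc1, which makes pseudouridine, read 181 and 81.9 units, 2.20-fold lower, and Nop56, a protein of the methylation guide complexes, 312 and 149 units, 2.10-fold lower. The genes that control ribosome production went both ways, with a median of -0.21 over 14 genes. Of these, 4 were at least 20% lower and 2 at least 25% higher, shares no larger than the 30.1% and 22.2% of all measured genes. Myc, a transcription factor that raises ribosome synthesis, read 83.7 and 39.1 units, 2.14-fold lower. Polr1b, a subunit of RNA polymerase I, read 54.8 and 31.0 units, 1.77-fold lower. Of the 14 genes, 8 (57.1%) were below 0, beside 55.9% of all measured genes, and 6 were above. Larp1, which binds TOP mRNAs, had a log2 ratio of -0.45, Mtor -0.49 and Rheb -0.23. On the other side were Mdm2, which degrades p53, at 0.55, Tsc2 at 0.41, Rptor at 0.18 and Tsc1 at 0.12.

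Proteins of the mitochondrial ribosome, made from other genes, had a median further from 0 than those of the cytosol, at weaker signals. Of 76 measured, 74 were below 0, 64 were at least 20% lower, 2 were at least 25% higher and 36 were at least 1.5-fold lower, with a median log2 ratio of -0.55. The shares of all measured genes were 55.9%, 30.1%, 22.2% and 14.7%. Mrpl43 read 319 and 69.6 units (4.58-fold lower), Mrps34 515 and 166 units (3.11-fold lower) and Mrpl33 165 and 66.1 units (2.50-fold lower). Their signals were weaker than those of most cytosolic members, and the 5 cytosolic genes outside the brightest class ran from -1.34 to 0.82. The difference between the lists has no test with 1 array per group.

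**Figure D5:**
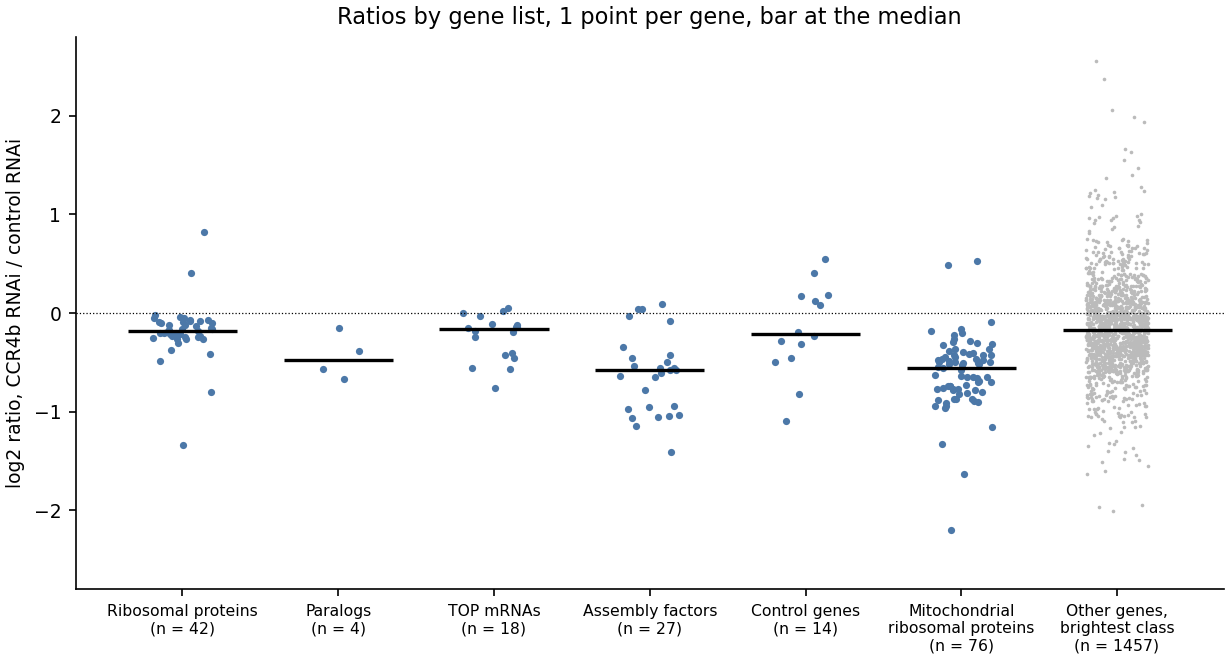
Log2 ratio of CCR4b RNAi over control RNAi (vertical) for each measured gene of 6 lists and for the other genes of the brightest signal class, 1 point per gene with a bar at the median. The other genes of the brightest class, most of them weaker in signal than the ribosomal proteins, have a median of -0.17, the ribosomal proteins -0.18 and the TOP mRNAs -0.17, and assembly factors and mitochondrial ribosomal proteins have medians of -0.58 and -0.55.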

How the data were processed

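Signals of 2 Affymetrix mouse expression arrays were used, 1 per group, grouped by the knockdown label. The deposited table holds linear intensities per probe set, which the authors computed in GCOS with a global normalization, per the labels and the series design text. The sources used here give no GCOS version, target value or detection call. The number of arrays limits the precision: no error, interval or p-value was computed.

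Probe sets were named through the platform annotation: 34958 have 1 symbol, 932 several and 9211 none listed. The 13 control probe sets with 1 symbol were left out. Signals were raised to a floor at the 50th percentile of all values and turned into log2 ratios. A gene was measured if 1 array reached the floor, and was represented by its brightest probe set (mean log2 of both arrays). A ratio with 1 array below the floor is a bound. Of all members, 94 of 107 probe sets passed. Named were all paralogs and name-sharing members, a fixed list of ribosomal proteins, the 8 highest and 8 lowest genes, genes without a bright probe set, genes whose probe sets differed by 1 log2 unit or more, and up to 3 genes per direction and list at 1.5-fold; others were added after their values were seen. The members and lists were chosen with earlier results of these data known. Alternatives changed the scaling, the floor, the probe set per gene, cross-hybridising probe sets and the limit of the brightest class. The scripts (Python 3.11.15) were tested on simulated data.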

Additional observations from a re-analysis of the deposited data

How the results depend on the processing

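Quantile normalization gave a median log2 ratio of -0.053 for the ribosomal protein genes, -0.085 for the large and -0.0020 for the small subunit, -0.047 for bright member probe sets and -0.011 for bright others. The loess correction on signal gave -0.057, -0.074, 0.0014 (the small subunit, whose sign turned), -0.051 and -0.0089. Both corrections are set by probe sets of the whole array, and they brought the median of the bright others near 0. At 3000 units or more, before correction, member probe sets had a median of -0.14 and the other probe sets -0.026. Among the 500 brightest probe sets the medians were -0.17 for members and -0.11 for others. The count of genes at least 20% lower was 3 with loess, where 25.5% of all measured genes were. It was 14 with division of each array by its median, where 36.8% of all measured genes were, and then 1 gene was at least 25% higher. Without _x_at and _s_at probe sets it was 7 over 37 genes, beside 30.3% of all measured genes. With the median over a gene's probe sets it was 7, beside 27.1%. The median of the dim member probe sets was -0.28 with the floor at the 25th percentile, -0.29 at the 75th and -0.53 without _x_at and _s_at probe sets, from 6 to 11 probe sets; the cause was not tested. Of the alternative values of 40 named genes, 314 of 317 moved by less than 0.30 log2 units, the spread between probe sets of a gene, and 0 of those at least 20% lower or 25% higher changed sign. The median of all genes moved most, by -0.089 log2 units, with division by the median. No paired analysis was possible because each group has 1 array. Weak signals limit the genes without a bright probe set, whose ratios rest on 1 probe set each.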

Other observations

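A second set of probe sets reads the same family and was kept out of the counts because each carries several symbols, 1 of them a ribosomal protein. There were 110 such probe sets, of which 105 were measured. Their median log2 ratio was -0.15 with a robust SD of 0.12, and 99 were below 0, where 55.9% of all measured genes were. The 66 with a mean signal of 3000 units or more had a median of -0.12 and a robust SD of 0.091. Of these, 65 were below 0, beside 61.9% of the 21 non-member probe sets of that signal with 1 symbol. The 14 between 1000 and 3000 units had a median of -0.26 and a robust SD of 0.21, from -0.70 to 0.35. The 21 below the limit of the brightest class had a median of -0.32, and 17 were below 0. These are the same 2 arrays, so the values add probes and not samples.

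The ratios did not separate by the letters at the gene start. The 8 measured genes with a C and 4 pyrimidines at the annotated start had a median log2 ratio of -0.18, from -0.80 to 0.82, and the 29 others with a promoter in the table had -0.18, from -1.34 to 0.41. With the ETS letters in the window the median was -0.18 over 19 genes, and without them it was -0.20 over 18.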
